A study of Mus musculus with 6 samples.

Results

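The 9 Krüppel-like factors Klf1, Klf2, Klf3, Klf4, Klf5, Klf6, Klf9, Klf10 and Klf13 were examined in adrenal glands of hypertensive and hypotensive mice. Every probe set whose only annotated gene symbol was one of these names was taken, which gave 14 of the 12422 probe sets that were not controls, for 9 of the 8251 genes named by a single symbol. Of these, 12 probe sets for 8 genes were bright enough to be tested. Total RNA from adrenal glands of male mice aged 12 weeks was hybridised to 6 Affymetrix arrays, 3 of the hypertensive strain BPH and 3 of the hypotensive strain BPL. Both are inbred lines derived from selection on blood pressure, and no treatment is given for either. Each strain is its own genetic background, so strain and blood pressure cannot be told apart. The labels do not say whether an array held 1 animal, and p-values then measure only the spread between these arrays, which may be technical. The question is whether the factors have different transcript levels in the 2 strains.

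Krüppel-like factors are transcription factors that bind GC-rich and CACCC-containing DNA through 3 zinc fingers at the end of the protein. They differ outside the fingers, where some members carry activation domains and others recruit corepressors such as CtBP or Sin3a. Several are transcribed rapidly after growth factors, hormones or stress, and others mark a cell type, such as Klf1 in red cell precursors and Klf2 in endothelium and lymphocytes.

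Klf4 was the only one of the 9 genes that passed the test between strains. Its brighter probe set was more than 4-fold higher in BPH, at a log2 difference of 2.13 ± 0.19 (SE, n = 3 and 3). Klf3 and Klf6 were higher on all 3 BPH arrays than on any BPL array, at log2 differences of 0.73 ± 0.18 and 0.53 ± 0.18, and did not pass. Klf1, Klf5, Klf9, Klf10 and Klf13 had overlapping groups on every tested probe set. Klf2 was too dim to be tested.

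The promoters of the called member, Klf4, of the pair with separate groups, Klf3 and Klf6, and of a bright member with no difference, Klf9, are shown to let their letters be compared. Sequences are from RefSeq, build GRCm38.p6, which held 7 of the 9 members. Klf5 and Klf10 are named only. Each runs from 250 bases before to 50 bases after the annotated start, 5′ to 3′. Capitals mark 3 motifs on either strand, whose matches can overlap. The first is the GC box, GGGCGG, bound by Sp and Krüppel-like factors. Another is the CACCC box, spelled as its name, which the same families bind. The last is a short form of the cyclic AMP response element, TGACG. The windows are chr4:55532426-55532725, minus strand for Klf4, chr5:64803271-64803570, plus strand for Klf3, chr13:5861239-5861538, plus strand for Klf6 and chr19:23140976-23141275, plus strand for Klf9.
Klf4: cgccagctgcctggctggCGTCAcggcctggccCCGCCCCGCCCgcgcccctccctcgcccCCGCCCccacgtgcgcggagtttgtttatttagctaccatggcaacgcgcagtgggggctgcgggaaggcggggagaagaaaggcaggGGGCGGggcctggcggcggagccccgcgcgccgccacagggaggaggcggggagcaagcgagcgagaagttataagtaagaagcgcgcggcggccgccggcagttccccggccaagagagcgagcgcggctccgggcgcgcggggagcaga
Klf3: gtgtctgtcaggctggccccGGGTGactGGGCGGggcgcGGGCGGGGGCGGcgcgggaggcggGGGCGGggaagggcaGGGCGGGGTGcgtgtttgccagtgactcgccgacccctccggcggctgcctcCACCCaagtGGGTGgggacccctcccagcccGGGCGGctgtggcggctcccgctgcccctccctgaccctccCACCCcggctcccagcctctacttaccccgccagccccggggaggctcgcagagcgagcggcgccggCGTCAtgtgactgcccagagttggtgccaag
Klf6: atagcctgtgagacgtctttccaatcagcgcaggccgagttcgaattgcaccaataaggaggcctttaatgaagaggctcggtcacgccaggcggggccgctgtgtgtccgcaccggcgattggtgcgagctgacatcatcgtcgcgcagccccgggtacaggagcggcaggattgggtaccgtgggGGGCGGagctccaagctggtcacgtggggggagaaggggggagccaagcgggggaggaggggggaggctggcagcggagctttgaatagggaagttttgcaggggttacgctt
Klf9: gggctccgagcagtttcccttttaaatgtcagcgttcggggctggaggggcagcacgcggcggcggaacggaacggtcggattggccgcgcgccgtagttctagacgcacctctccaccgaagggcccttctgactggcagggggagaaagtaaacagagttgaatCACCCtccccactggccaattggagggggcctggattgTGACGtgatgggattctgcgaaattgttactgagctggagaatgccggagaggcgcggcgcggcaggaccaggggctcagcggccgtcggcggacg

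Klf4 held 4 GC boxes, 0 CACCC boxes and 1 short element, and Klf3 held 6 GC boxes, 5 CACCC boxes and 1 short element. Klf6 held 1 GC box and neither other motif, and Klf9 held 0 GC boxes, 1 CACCC box and 1 short element. Of 32851 mouse promoters of the same length, 35.7% held a GC box, 57.5% a CACCC box and 20.8% a short element. G and C made up 74.3% of the Klf4 window and 76.7% of that of Klf3, against 63% for Klf6, 63.3% for Klf9 and a median of 52.7% over all promoters. Neither the full cyclic AMP response element (TGACGTCA, 1.79% of promoters), the CArG box of serum response factor (1.63%), the heat shock element (GAANNTTC, 7.86%) nor the TATA box (TATAAA, 13.6%) was found in any of the 7 member promoters. The MEF2 site (3.69%) was found in that of Klf2 alone among the 7, at position -118 from the start. These are matches of letters in 1 window and no evidence of binding.

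Klf4 builds epithelial barriers, restrains inflammation and growth in endothelium, and is one of the factors used to reprogramme somatic cells. Its probe set 99622_at gave signals of 1089, 1762 and 1298 on BPL arrays 1, 2 and 3, and of 7322, 6667 and 6003 on BPH arrays 1, 2 and 3. Signals are MAS5 intensities in arbitrary units after each array was scaled to a common median. The groups did not overlap, and within a strain the highest array was 1.62 times the lowest in BPL and 1.22 times in BPH. The means were 1383 ± 344 in BPL and 6664 ± 660 in BPH (SD, n = 3). The log2 difference, on the scale of signal plus 203, was 2.13 with a 95% interval from 1.69 to 2.57, a 4.38-fold increase (limma with Benjamini-Hochberg adjustment over 7453 probe sets, adjusted p = 7.9e-04). It ranked 30 by size of increase and 22 by p among the tested probe sets.

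One of the 12 tested Krüppel-like factor probe sets was thus called higher and 0 lower, against 3.18% and 0.926% of all tested probe sets, or 4.11% in either direction. At an unadjusted p under 0.05, 3 were higher and 0 lower. Over all 7453 tested probe sets, 14.2% (1055) were higher and 1532 differed in either direction at that level. Because the mean level of Klf4 in BPL, 10.61 on the log2 scale, was itself above the level of 9.68 needed for testing, its test did not depend on the high group alone. Klf4 was called under all 18 alternative settings run, with log2 differences from 1.86 to 2.30 and adjusted p from 3.1e-05 to 0.0077.

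The other Klf4 probe set, 161185_i_at, was dim and was not tested. It gave 64.3, 16.7 and 33.1 in BPL and 22.1, 233 and 28.2 in BPH. Only BPH array 2 stood above the BPL arrays, and BPH arrays 1 and 3 lay within the BPL range. The call on Klf4 therefore rests on 1 probe set.

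**Figure D1:**
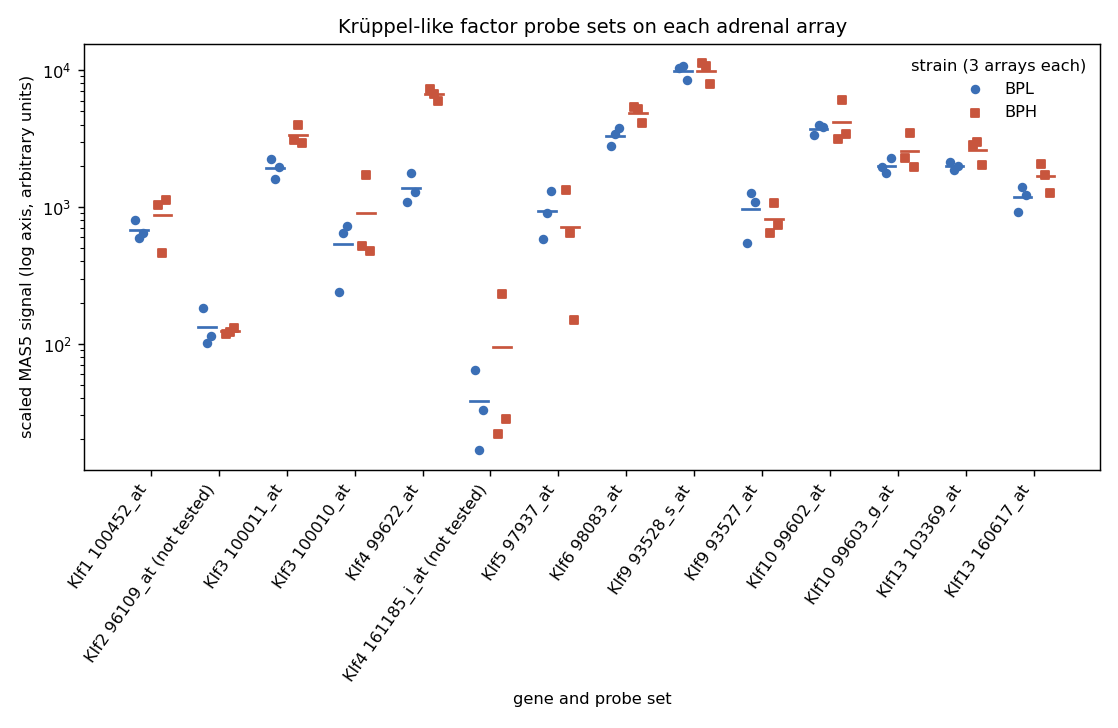
Scaled MAS5 signal (log axis) of each Krüppel-like factor probe set, with a circle for each BPL array, a square for each BPH array and a bar at each group mean (n = 3). The BPH squares of Klf4 99622_at lie between 6003 and 7322, above the BPL circles at 1089 to 1762, while the groups overlap for most other probe sets.

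Klf3 is a repressor that recruits the corepressor CtBP and acts in fat, blood and muscle cells. Probe set 100011_at gave 2230, 1614 and 1951 in BPL and 3071, 3987 and 2949 in BPH. All 3 BPH arrays lay above all 3 BPL arrays, with means of 3336 ± 567 and 1932 ± 309 (SD, n = 3). The log2 difference of 0.73 had a 95% interval from 0.31 to 1.15 (limma adjusted p = 0.07). It passed with the stricter filter on dim probe sets (adjusted p = 0.027) and with a trended and robust variance (adjusted p = 0.034), settings that called 6.78% and 4.56% of all tested probe sets higher, and in none of the other 16 alternatives, where adjusted p ran up to 0.38.

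The dimmer Klf3 probe set, 100010_at, gave 240, 650 and 721 in BPL and 520, 1712 and 476 in BPH. The groups overlapped, and BPH array 2 stood apart from the rest. Its log2 difference was 0.48 with an interval from -0.50 to 1.45 (limma adjusted p = 0.55), and -0.01 without BPH replicate 2. Its mean level in BPL, 9.46, was under the 9.68 needed for testing, so it was tested only because of its level in BPH.

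Klf6 is a broadly expressed factor induced early after tissue injury. Its only probe set, 98083_at, gave 2771, 3404 and 3767 in BPL and 5352, 5173 and 4101 in BPH. The groups did not overlap, and the gap between BPL array 3 and BPH array 3 was small beside the spread within each strain. Means were 3314 ± 504 and 4875 ± 677 (SD, n = 3), and the log2 difference was 0.53 with an interval from 0.12 to 0.94 (limma adjusted p = 0.15). No alternative gave a call (adjusted p from 0.082 to 0.78), and the difference was 0.35 without BPL replicates 1 and 2.

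Separate groups with higher BPH signals were found for 3 of the 12 tested Krüppel-like factor probe sets, those of Klf4, Klf3 and Klf6, against 19.7% of all tested probe sets. With lower BPH signals they were found for 0 of 12, against 7.97%. Differences were positive for 10 of the 12, against 60.5% of all tested probe sets, and their median was 0.32 against 0.08 for all tested probe sets. With the authors' own scaling 8 of the 12 were positive, against 46.9% of all tested probe sets, and the medians were 0.21 and -0.02. The 12 probe sets cover 8 genes, since Klf3, Klf9, Klf10 and Klf13 each enter through a pair of probe sets, which are not independent. The tally also includes Klf3 100010_at, tested only through its level in BPH. Klf5 is included too, and its mean level in BPH, 9.59, was under that needed for testing. It was tested only through its level in BPL.

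**Figure D2:**
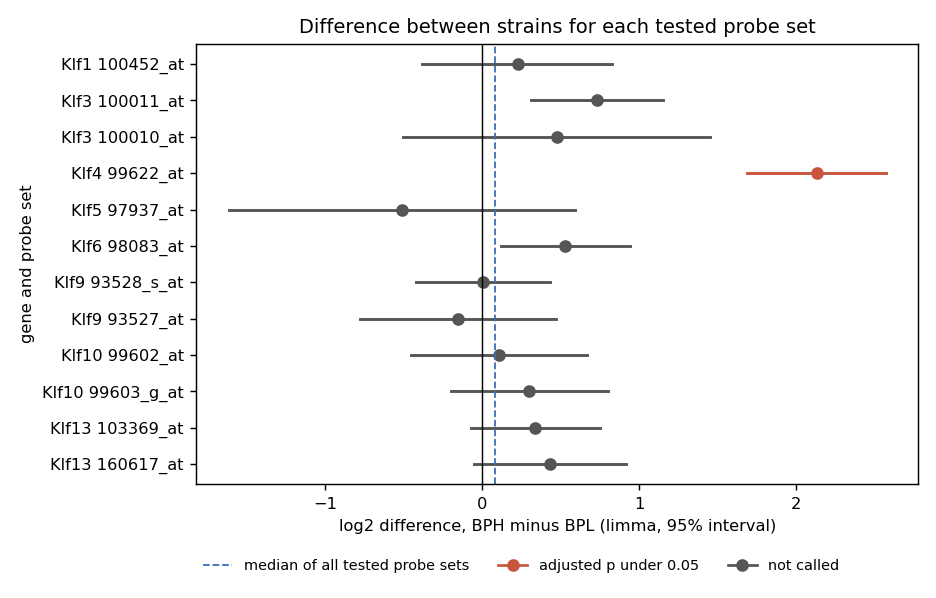
Log2 difference (BPH minus BPL) of each tested Krüppel-like factor probe set, with its 95% interval from limma, and a dashed line at the median of all tested probe sets (0.08). The interval of Klf4, from 1.69 to 2.57, lies to the right of every other, while those of Klf3 100011_at and Klf6 also exclude 0 without passing the adjusted test.

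Klf9, Klf10 and Klf13 form the branch of the family that represses through the Sin3a corepressor. Klf9 is induced by glucocorticoids and thyroid hormone. Its probe set 93528_s_at, whose suffix marks probes that can match more than one transcript, gave 10356, 10642 and 8543 in BPL and 11222, 10699 and 7914 in BPH. The strains overlapped fully, with means of 9847 ± 1139 and 9945 ± 1778 (SD, n = 3). The log2 difference of 0.0045 had an interval from -0.42 to 0.43 (limma adjusted p = 0.99), which leaves room for changes of up to about that size in either direction. Its sign turned in 7 of 18 alternatives. The dimmer probe set 93527_at gave 542, 1263 and 1086 in BPL and 645, 1072 and 743 in BPH, again overlapping, at -0.15 ± 0.27 (SE, limma adjusted p = 0.78).

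Klf10, first described as a gene induced early by TGF-beta, was measured by a pair of probe sets. The first, 99602_at, gave 3341, 3953 and 3868 in BPL and 3127, 6047 and 3421 in BPH, and 99603_g_at gave 1958, 1759 and 2264 in BPL and 2262, 3459 and 1949 in BPH. On both, BPH array 2 was the highest and BPH arrays 1 and 3 lay near the BPL arrays. The log2 differences were 0.11 ± 0.24 and 0.30 ± 0.22 (SE), with limma adjusted p of 0.83 and 0.47 and intervals reaching 0.67 and 0.80. Without BPH replicate 2 they were -0.17 and 0.07.

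Klf13, which regulates chemokine and receptor genes in lymphocytes and acts in heart development, gave the same picture on both of its probe sets. Probe set 103369_at gave 2149, 1862 and 1999 in BPL and 2829, 3001 and 2028 in BPH. Probe set 160617_at gave 924, 1392 and 1219 in BPL and 2056, 1701 and 1259 in BPH. In each, BPH arrays 1 and 2 were above every BPL array and BPH array 3 lay within the BPL range. The log2 differences were 0.34 ± 0.18 and 0.43 ± 0.21 (SE), with intervals from -0.07 to 0.75 and from -0.05 to 0.92 (limma adjusted p = 0.32 and 0.28).

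Klf5 promotes growth of smooth muscle and epithelial cells and takes part in fat cell differentiation. Its probe set 97937_at gave 585, 910 and 1312 in BPL and 1336, 641 and 150 in BPH, where the highest array was 8.91 times the lowest. No order of the strains can be read from it: the log2 difference was -0.51 with an interval from -1.61 to 0.59 (limma adjusted p = 0.58), and 0.05 without BPH replicate 3. Klf1, the activator of adult globin genes, gave 801, 595 and 644 in BPL and 1026, 464 and 1121 in BPH on probe set 100452_at. BPH array 2 was the lowest of all 6 arrays and the other pair the highest, at a log2 difference of 0.23 ± 0.26 (SE, limma adjusted p = 0.66).

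Klf2, which keeps endothelium quiescent and guides lymphocyte traffic, gave 183, 101 and 114 in BPL and 118, 121 and 131 in BPH on its only probe set, 96109_at. These signals are under the pseudocount of 203, and the BPH arrays lay inside the BPL range. The probe set was not tested, and nothing can be said of a difference at this signal.

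The arrays did not contribute evenly to these patterns. Among the 12 tested Krüppel-like factor probe sets, BPH array 1 was the highest for 5, BPH array 2 for 5, BPH array 3 for 1 and BPL array 2 for 1. Over all tested probe sets the same arrays were the highest for 27.2%, 20.8%, 10.2% and 12.4%. BPH array 2 was the highest for both probe sets of Klf3 and both of Klf10, and for 103369_at of Klf13.

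Probe sets that followed each member over the 6 arrays are given as a description, since all points share the same arrays and the strain difference enters each r. Klf4 was followed most closely by the nuclear receptor Nr4a1 (Pearson r = 0.999), the actin capping protein Capg (0.997) and Bzw1 (0.996), which were themselves called higher, at log2 differences of 1.55, 3.11 and 1.03. Klf3 100011_at was followed by Wsb1 (0.993), Egln2 (0.989) and Tiparp (0.984), none of them called (limma adjusted p = 0.1, 0.35 and 0.052). Klf6 was followed by Plpbp (0.995), Gnb2 (0.993) and Pcbp2 (0.992), none of them called (limma adjusted p = 0.27, 0.28 and 0.22). The closest gene to the brighter probe set was Rnf10 for Klf9 (0.973), Cdk11b for Klf10 (0.981) and Cdh2 for Klf13 (0.990), and on their only probe sets it was Ak3 for Klf5 (0.985) and Eya1 for Klf1 (0.985).

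Klf4 was set beside the immediate early transcription factors, genes transcribed within minutes of a stimulus. Their differences ran from -0.43 for Fosl2 to 3.47 for Fos, a range so wide that it also holds the median of all genes. Of 14 tested, 10 were called higher and 0 lower, with a median log2 difference of 1.93, against 3.32% of 5664 genes called higher and a median of 0.09 over all genes. With the brightest probe set of each gene, the largest differences were those of Fos (3.47 ± 0.35), Junb (3.41 ± 0.23) and Egr1 (3.16 ± 0.22), subunits of AP-1 and a zinc finger factor. The orphan nuclear receptor Nr4a2 (3.06) came next, and each was called under all 18 alternatives. The dimmer probe sets of Junb and Nr4a2 gave 5.10 ± 0.22 and 3.47 ± 0.23 (SE), that of Junb being the largest difference of all tested probe sets. Nr4a1, a regulator of steroid enzyme genes in the adrenal cortex, gave 18976, 26933 and 22281 in BPL and 68573, 65770 and 64354 in BPH, at 1.55 ± 0.17 (SE, limma adjusted p = 0.0019). The 3 BPH arrays lay close together and far above the BPL arrays, as for Klf4. Between 8 and 10 of the list were called in every alternative. On 1 probe set per gene, 6 of the 14 had a larger difference than Klf4 and 8 a smaller one. Egr2, at 2.02 ± 0.40, and Ier2, at 2.20 ± 0.23 (SE), were its neighbours (limma adjusted p = 0.031 and 0.0013), and the differences between these genes and Klf4 were not tested. Jun, Jund, Myc and Fosl2 were not called. Of all 5664 genes, 23 had a larger difference than Klf4.

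Among the genes around the family, the list of glucocorticoid receptor targets, the hormone receptor that induces Klf9, had the largest median of the pathway lists after the immediate early genes. Of 20 tested, 10 were called higher and 0 lower, against 3.32% and 0.918% of all genes. The median was 0.78, against 0.09 over all genes. Errfi1, an inhibitor of the EGF receptor, rose by 2.12 ± 0.24 (SE, limma adjusted p = 0.002) on its brighter probe set, the phosphatase Dusp1 by 1.87 ± 0.28 (adjusted p = 0.0087), the mTOR inhibitor Ddit4 by 1.49 ± 0.22 (adjusted p = 0.0081) the metal-binding protein Mt1 by 1.21 ± 0.22 (adjusted p = 0.023) and the clock gene Per1 by 1.15 ± 0.16 (adjusted p = 0.0067). The dimmer Errfi1 probe set, at 1.25 ± 0.31 (SE, limma adjusted p = 0.065), was not called. Several of these genes also respond to other stimuli. The classical target Fkbp5, at 0.38 ± 0.20 (SE, limma adjusted p = 0.33), was not called, and Tsc22d3 was too dim to be tested. Over all tested probe sets, calls in either direction fell from 306 to 160 without BPL replicate 1 and 138 without BPL replicate 2. They fell to 128 without BPH replicate 1 and 112 without BPH replicate 2. Leaving out an array changed the count of this list to 6 (BPL replicate 1 or BPL replicate 2), 5 (BPH replicate 1) or 4 (BPH replicate 2). It was 3 with BPL replicates 1 and 2 both left out, and 4 with no filter. Without BPL replicates 1 and 2 together Per1 was not called (adjusted p = 0.11). Mt1 was not called when BPL replicate 1 was left out (0.064), nor when this was done for BPH replicate 1 (0.077) or for BPH replicate 2 (0.095), with BPL replicates 1 and 2 both left out (0.19), or with no filter (0.067).

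Of 14 tested genes regulated by Klf2 and Klf4 in endothelium, 1 was called higher and 0 lower, against 3.32% and 0.918% of all genes, and the median was -0.02. At an unadjusted p under 0.05, 3 were higher and 0 lower, against 14.2% of all tested probe sets higher. With the stricter filter 3 were called higher, and 3 with a trended and robust variance. These settings called 6.78% and 4.56% of all tested probe sets higher. Besides the called gene, the growth factor Vegfa, at 0.75 ± 0.18 (SE, limma adjusted p = 0.058), had separate groups with higher BPH signals. So did the TGF-beta co-receptor Eng, at 0.72 ± 0.21, and Tek, at 0.42 ± 0.19 (SE, limma adjusted p = 0.11 and 0.26). Adm, at -0.28 ± 0.16, and Vcam1, at -0.32 ± 0.18 (SE, limma adjusted p = 0.35 and 0.34), had separate groups with lower BPH signals. Over all tested probe sets, 19.7% were separate and higher and 7.97% separate and lower. The list was not split by the direction in which the factors act. The called gene was Plat, the tissue plasminogen activator, at 0.89 ± 0.18 (SE, limma adjusted p = 0.03). Plat was not called without BPL replicate 1 (0.085), BPL replicate 3 (0.059), BPH replicate 1 (0.074), BPH replicate 2 (0.13) or BPH replicate 3 (0.073), nor with no filter (0.08) or without BPL replicates 1 and 2 together (0.16). Thbd, the thrombin receptor thrombomodulin, differed by 0.11 ± 0.21 and on its other probe set by 0.38 ± 0.17 (SE, limma adjusted p = 0.79 and 0.26). Nos3, the endothelial nitric oxide synthase, was too dim to be tested, at 330, 187 and 272 in BPL and 163, 204 and 189 in BPH. Of 10 endothelial markers limma called 0 in either direction, with 2 higher and 2 lower at an unadjusted p under 0.05 and a median of 0.06. Of 17 genes listed around the MEK5, ERK5 and MEF2 pathway, which induces Klf2 and Klf4, 10 were tested. Mapk7, the gene of ERK5 itself, was not among these 10. Limma also called 0 of the 10, with 0 at an unadjusted p under 0.05 and a median of 0.13.

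Other partners and targets were mostly uncalled. Of 13 corepressors and coactivators, 0 were called higher and 1 lower, against 3.32% and 0.918% of all genes. The coactivator Crebbp had separate groups, at 0.55 ± 0.14 (SE, limma adjusted p = 0.078), higher in BPH as for 19.7% of all tested probe sets. With the stricter filter, which called 6.78% of all tested probe sets higher, 1 gene of the list was called higher. The lower gene, Rbbp4, a histone-binding subunit of the Sin3 complex, fell by 1.07 ± 0.24 (SE, limma adjusted p = 0.049), from signals of 5468, 10002 and 10314 in BPL to 3728, 3813 and 4002 in BPH. Rbbp4 lost its call in 8 of 18 alternatives (adjusted p from 0.064 to 0.16 there), among them leaving out BPL replicate 2 (0.15), BPL replicate 3 (0.088), BPH replicate 1 (0.14), BPH replicate 2 (0.16) or BPH replicate 3 (0.11). Sin3a and Ctbp1, the direct partners, differed by -0.07 ± 0.15 and 0.19 ± 0.15 (SE), not called (limma adjusted p = 0.81 and 0.51).

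Of 15 tested genes of TGF-beta and Smad signalling, around Klf10, limma called 0, with 2 higher and 2 lower at an unadjusted p under 0.05. Over all tested probe sets, 14.2% were higher at that unadjusted level. The inhibitory Smad7 stood at -0.01 ± 0.26 (SE, limma adjusted p = 0.99), a value whose sign turned when single arrays were left out. Of 7 erythroid genes, targets of Klf1, limma called 0, also 0 at an unadjusted p under 0.05, and the globin genes Hba-a1 and Hbb-b2 differed by 0.31 ± 0.22 and 0.36 ± 0.21 (SE). Of 4 tested lymphocyte genes limma called 0, again 0 unadjusted.

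Of 13 genes of fat cell differentiation, around Klf5, 3 were called higher and 0 lower, against 3.32% and 0.918% of all genes, with a median of 0.07. At an unadjusted p under 0.05, 3 were higher and 1 lower, against 14.2% of all tested probe sets higher. Cebpa, a C/EBP factor of mature fat cells, was the lowest, at -0.56 ± 0.17 (SE, limma adjusted p = 0.12), with separate groups. Fabp4, at -0.39 ± 0.19 (SE, limma adjusted p = 0.3), also had separate groups with lower BPH signals, as had 7.97% of all tested probe sets. The called genes were Dlk1, a preadipocyte protein also made by adrenal cells (1.06 ± 0.24), and the C/EBP factors Cebpb (0.96 ± 0.18) and Cebpd (0.87 ± 0.19, SE, limma adjusted p = 0.045, 0.023 and 0.045), the C/EBP pair standing in the glucocorticoid list too. None of the 3 was called without BPL replicate 1 (adjusted p = 0.13, 0.064 and 0.11), BPL replicate 2 (0.11, 0.077 and 0.11), BPH replicate 1 (0.1, 0.085 and 0.12) or BPH replicate 2 (0.12, 0.11 and 0.15). Without BPL replicate 3, Dlk1 (0.055) and Cebpd (0.079) were not called. Over all 18 alternatives Dlk1 lost its call in 12, Cebpd in 11 and Cebpb in 6. Of 11 smooth muscle contractile genes, which Klf4 represses in culture, 1 was called higher and 0 lower, with 3 higher and 2 lower at an unadjusted p under 0.05. The 2 lower were Des, at 3375, 4235 and 1335 in BPL, and Tpm2, at 5562, 15778 and 1936. Both stood above the BPH arrays on BPL arrays 1 and 2, which also held the most skeletal muscle marker signal. A link between these was not tested. Cnn2, Tpm1, Mylk and Vcl, not called, were higher on all BPH arrays, as were 19.7% of all tested probe sets. The called gene was Tagln, at 0.93 ± 0.19 (SE, limma adjusted p = 0.035), which was not called with any single array left out (adjusted p from 0.065 to 0.12), with the authors' scaling (0.061) or after quantile normalization (0.065).

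Of the family members outside the 9 and the related Sp factors, 4 were tested, and limma called 0, also 0 at an unadjusted p under 0.05. Klf7 differed by 0.26 ± 0.22, Sp1 by 0.27 ± 0.23, Sp3 by -0.06 ± 0.16 and Klf17 by -0.17 ± 0.42 (SE). Klf12 was under the filter, at 476, 488 and 718 in BPL and 106, 87.2 and 364 in BPH, with all BPH arrays below all BPL arrays.

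**Figure D3:**
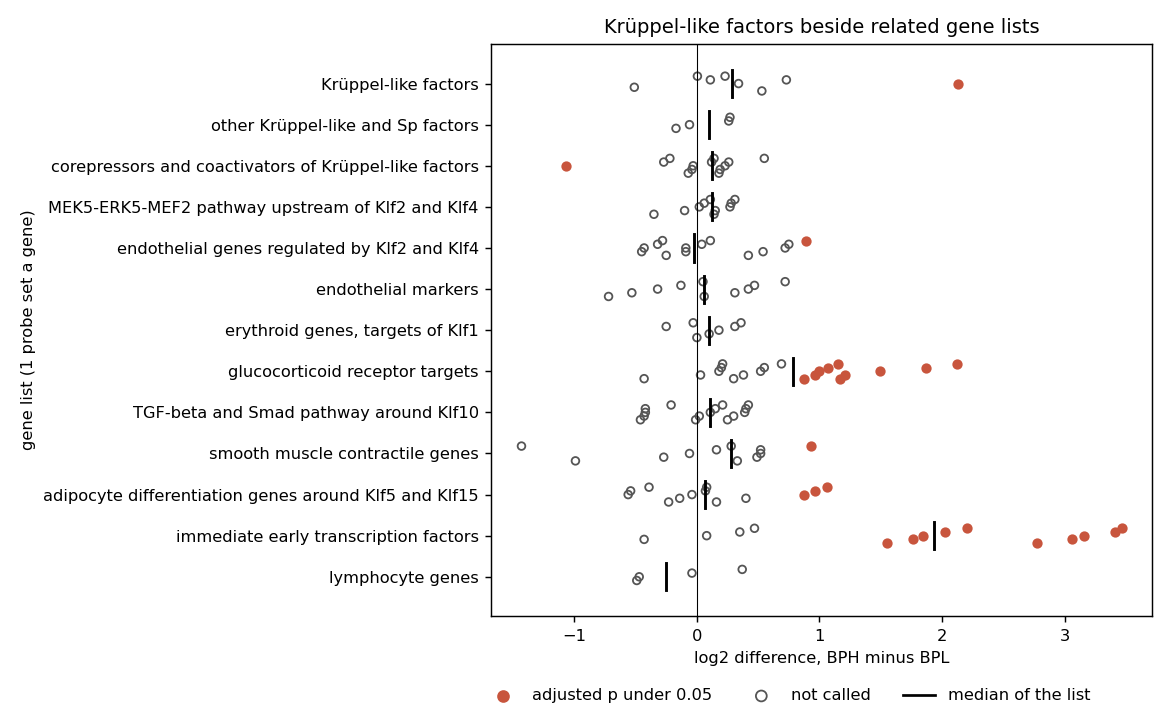
Log2 difference (BPH minus BPL) of the tested genes of each list, with 1 probe set per gene, filled points for genes with an adjusted p under 0.05 and a bar at each median. Among the Krüppel-like factors only Klf4, at 2.13, is filled. Of the 14 immediate early transcription factors, 6 lie above it and 8 below.

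Other measures also separated the strains. Of the markers of the labelled tissue, 8 of 9 for the cortex and 9 of 11 for chromaffin cells were on the array, and none was listed at 0. The summed chromaffin signal was 147908 to 230993 in BPL and 240416 to 308002 in BPH, that of 8 macrophage markers 13544 to 15887 and 16302 to 19541, and that of 6 smooth muscle markers, Tagln among them, 8723 to 12868 and 13044 to 17752. In these 3 lists all BPH sums were above all BPL sums. Called higher were 3 of 7 tested chromaffin markers, 1 of 4 for smooth muscle, 0 of 7 for macrophages and 0 of 8 for cortex. Over all genes the share was 3.32%. The mean log2 signal of the smooth muscle markers overlapped, at 10.27 to 10.68 in BPL and 10.58 to 10.95 in BPH. The 11 endothelial markers summed to 24349 to 35085 in BPL and 35216 to 39617 in BPH. Their mean log2 signal overlapped, at 10.90 to 11.28 in BPL and 11.05 to 11.27 in BPH. Among the tested ones, Eng, Emcn, Tek and Cdh5 were higher and Tie1 and Ets1 lower on all BPH arrays. Over all tested probe sets, 19.7% were higher and 7.97% lower in this way. The 6 fat markers summed to 180507 to 191907 in BPL and 138561 to 196189 in BPH, and limma called 0 of them. Ucp1, at -0.84 ± 0.24, and Fabp4, at -0.39 ± 0.19, were lower on all BPH arrays (SE, limma adjusted p = 0.097 and 0.3). Retn, at 0.99 ± 0.25 (SE, limma adjusted p = 0.069), was higher on all of them. The 12 skeletal muscle markers summed to 141004, 337937 and 25395 on BPL arrays 1, 2 and 3 and to 4465 to 5575 in BPH. Of 10 tested, 7 were called lower and 0 higher, against 0.918% and 3.32% of all genes. The Gapdh controls had a 3' over 5' log2 ratio of 0.08 to 0.21 in BPH and -0.03 to 0.06 in BPL, and those of Actb 0.94 to 1.25 and 0.79 to 0.90 (exact permutation test, 2-sided, p = 0.1 for each, the smallest that 3 against 3 arrays allow). The part of these in the Klf4 difference was not tested. Without BPL arrays 1 and 2 the Klf4 difference was 2.19 ± 0.23 (SE, limma adjusted p = 0.0077), where the lone BPL array is assumed to vary like the BPH arrays. That array, at a sum of 25395, still held more skeletal muscle signal than any BPH array. In whole glands, fewer cells of a type and less RNA per cell cannot be told apart.

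**Figure D4:**
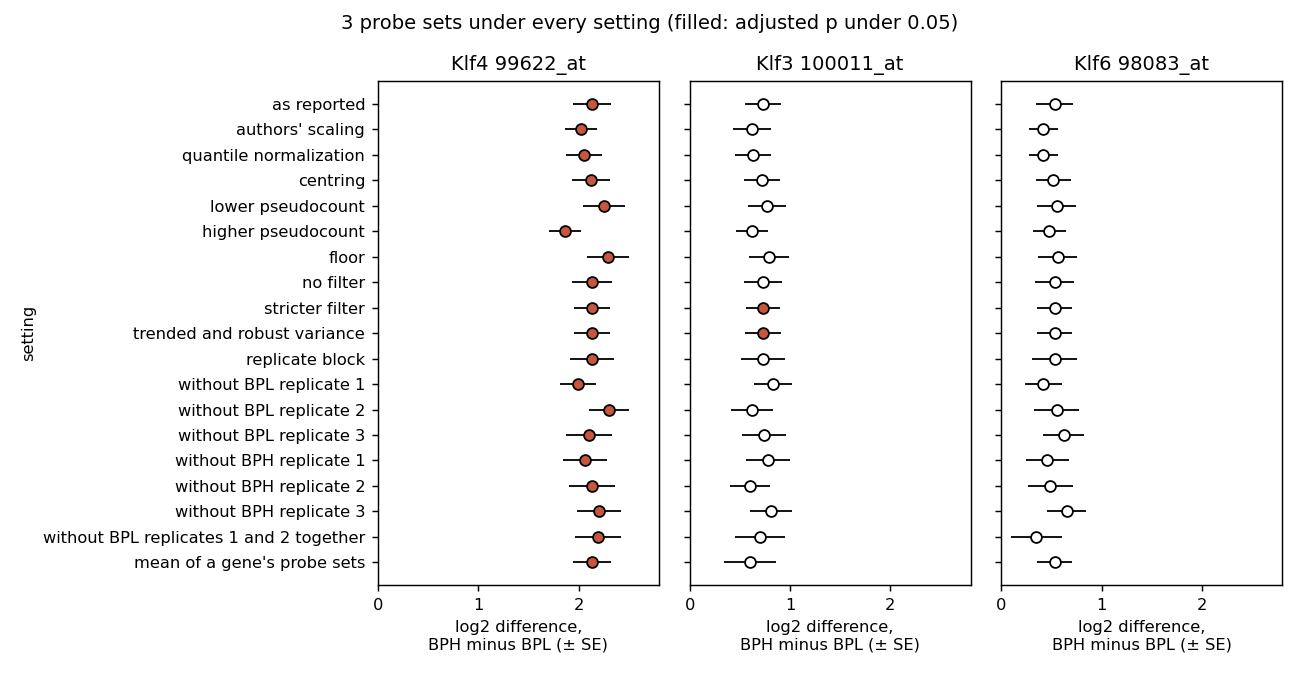
Log2 difference (BPH minus BPL) ± SE of Klf4 99622_at, Klf3 100011_at and Klf6 98083_at as reported and under each of 18 alternative settings, filled where the adjusted p was under 0.05. Klf4 is filled throughout, between 1.86 and 2.30, Klf3 under 2 settings, and Klf6 under none.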

How the data were processed

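Values are MAS5 signals, per the submitters' processing notes, as linear intensity in the authors' deposited table. The MAS5 version and settings were not given in the sources used. Array medians over the 12422 probe sets that were not controls (66 controls) ran from 945 to 1144, a spread of 21%, and arrays were brought to a common median of 1040. A pseudocount of 203, the 20th percentile, was added before log2, which understates changes at low signal. Probe sets in the lowest 40% by mean log2 value were not tested, leaving 7453 for 5664 genes. BPH and BPL were compared with limma 3.58.1 in R 4.3.3 (lmFit and eBayes, 4 residual and 4.50 prior degrees of freedom), with p-values adjusted by Benjamini-Hochberg over all tested probe sets at a threshold of 0.05. The fit was tested on simulated data.

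Gene names come from the 10833 probe sets that the platform annotation pairs with exactly 1 symbol. In lists, each gene has its brightest probe set, and no set test was run. The members and lists were chosen with earlier results of these data known. Named were all members with every probe set, up to 4 called genes per list with the largest differences, 10 fixed genes, and the 3 genes with the highest Pearson r to each member. Other uncalled list genes, Egr2, Ier2 and Klf12 were chosen after their values were seen. Alternatives changed the scaling, pseudocount, filter, variance model, replicate block, arrays included or probe set averaging. Precision is limited by the 6 arrays.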

Additional observations from a re-analysis of the deposited data

How the results depend on the processing

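The number of probe sets called was 306 as reported, 127 with no filter, 92 without BPL replicates 1 and 2 together, and 112 to 372 when single arrays were left out. With the replicate block it was 239. Same-numbered arrays had correlations of deviations from their group means of -0.0581, -0.0544 and -0.177, so the numbers were not taken as pairs, and Klf4 stayed called with the block (adjusted p = 0.0022). The number of Krüppel-like factor probe sets called higher was 2 with the stricter filter and 2 with a trended and robust variance, through Klf3, and 1 in every other setting, single arrays left out included. Signs turned only for uncalled values, among them Klf5 (-0.51 as reported) and Klf3 100010_at (0.48). Klf9 93528_s_at was -0.11 with the authors' scaling, -0.15 after quantile normalization, -0.01 after centring, -0.07 as the mean of its probe sets and -0.09 to 0.16 with single arrays left out. Klf10 99602_at was -0.00049 with the authors' scaling and -0.17 to 0.28 with single arrays left out. With single arrays left out, Klf3 100010_at ranged from -0.01 to 0.74, Klf5 from -1.01 to 0.05, Klf9 93527_at from -0.45 to 0.04, Smad7 from -0.24 to 0.14 and Thbd from -0.07 to 0.31. The cause of these changes was not tested, beyond fewer samples in settings that leave arrays out. Probe sets near the pseudocount, such as that of Klf2, gave no usable difference.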

Other observations

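Klf4 was not alone in having a dim second probe set that did not follow the bright one. For Fos, the dim probe set 161716_at gave 675, 187 and 345 in BPL and 468, 535 and 514 in BPH, while 160901_at gave 555 to 1023 and 6067 to 16182. For Egr1, the dim probe set 161802_i_at gave 504, 507 and 537 in BPL and 321, 591 and 602 in BPH, while 98579_at gave 1851 to 2492 and 15694 to 26798. None of these dim probe sets was tested, and they were chosen after their values were seen. For other genes the dimmer probe set was tested and was higher in BPH, like the brighter one. The log2 difference was 5.10 ± 0.22 for that of Junb and 3.47 ± 0.23 for that of Nr4a2 (SE), both called. For that of Errfi1 it was 1.25 ± 0.31 (SE, limma adjusted p = 0.065), not called.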
